A study of Mus musculus with 4 samples.

Results

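Costimulatory TNF receptors and a TNF-family ligand, which carry signals between lymphocytes, were followed in single cells of the mouse liver. They are *Tnfrsf4* (OX40), *Tnfrsf9* (4-1BB), *Tnfrsf18* (GITR), *Tnfrsf1b* (TNFR2), *Cd27*, *Cd40* and *Cd40lg* (CD40 ligand). They were chosen by name and are 7 of the 31053 genes in the deposited matrices. ConA (concanavalin A), a lectin of jack beans, activates T cells and injures the mouse liver. TCDD and FICZ are ligands of the aryl hydrocarbon receptor (AhR), a transcription factor. Liver mononuclear cells of C57BL/6 mice aged 8 to 10 weeks were profiled by RNA sequencing of single cells in droplets of transcript 5′ ends, with 1 library for each of 4 groups. Naïve mice received no ConA. The other groups were analysed 24 hours after ConA and were ConA+Veh, ConA+TCDD, in which 10 µg/kg TCDD followed ConA by 1 hour as corn oil did in ConA+Veh, and ConA+FICZ, whose dose and time of FICZ are not given in the sources used here. The number of mice behind a library is likewise not given in the sources used here, so every comparison is between single libraries and no p-value is given.

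T cells need a signal through the antigen receptor and a further, costimulatory signal to expand and survive, and receptors of the TNF family supply much of the latter. OX40, 4-1BB and GITR are induced on T cells after stimulation, with OX40 and GITR also high on regulatory T cells, and 4-1BB is found on activated NK cells as well. CD27 is already present on resting T cells, TNFR2 is the TNF receptor of lymphocytes and myeloid cells, and CD40 on B cells and phagocytes is engaged by CD40 ligand on helper T cells.

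Cells were placed in classes by their UMIs, the molecules counted, of marker genes that did not include the 7 genes. T cells had *Cd3d* or *Cd3e* and at least 2 UMIs of T cell receptor complex genes, and were divided by *Foxp3*, *Trdc*, *Zbtb16* or *Klrb1c*, *Cd8a* or *Cd8b1*, and *Cd4*. The CD4 and CD8 T cells were divided further into cycling cells, with at least 2 UMIs of cell cycle genes, and non-cycling cells. The non-cycling CD4 T cells numbered 51, 44, 30 and 44 in the libraries Naïve, ConA+Veh, ConA+TCDD, ConA+FICZ, the order kept in all lists of 4 values, and the non-cycling CD8 T cells 163, 106, 128 and 111. *Il2ra*, the interleukin-2 receptor chain of stimulated T cells, was detected in 0%, 16.7%, 13.8% and 9.30% of the non-cycling CD4 T cells and in 1.25%, 6.00%, 15.4% and 10.9% of the non-cycling CD8 T cells when each cell was thinned to 1000 UMIs. CD4 T cells, cycling and non-cycling together, numbered 58, 107, 76 and 69 in the 4 libraries in that order, CD8 T cells 167, 386, 270 and 243, NK cells 121, 186, 140 and 140, B cells 1074, 753, 370 and 759, and all T cells 498, 801, 671 and 558. T cells with neither CD4 nor CD8 UMIs, or with both, and without the other T markers are called other T cells and numbered 166, 186, 236 and 136. A class of phagocytes served for comparison.

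The libraries held between 1880 and 2779 cells and between 5952445 and 19252211 UMIs, with a median of 2161 UMIs per cell in Naïve and of 3147 to 3984 in the ConA libraries. The gap was wider in T cells, with medians of 2692, 6842, 6169 and 8096 UMIs, so levels are given as UMIs of a gene per 1000000 UMIs of its class (CPM). Shares of cells with a UMI are given after each cell was thinned to 1000 UMIs, with shallower cells left out, unless they are said to be unthinned. Intervals in parentheses are exact 95% intervals for counting error only, Poisson for CPM, Clopper-Pearson for shares and binomial for log2 ratios. Where a count was 0, the limit it allows is that of 3 UMIs or 3 cells. The intervals are narrower than the error between animals, which was not measured, and UMIs of a gene can be concentrated in few cells. Between 15.6% and 35.7% of the cells of a library entered no class, and 16 to 29 cells of a library shared a barcode with a cell of another library. Markers of other cells were low in most classes. Among the exceptions were neutrophil genes at 3726 CPM in cycling CD4 T cells of ConA+FICZ, or 1876 CPM over its CD4 T cells against 8.31 CPM in ConA+Veh, at 1352 CPM in NK cells of ConA+TCDD, against 11.9 CPM in ConA+Veh, and at 522 and 799 CPM in B cells of ConA+Veh and ConA+FICZ. In the CD4 T cells 1841 of the 1847 UMIs lay in 1 cell, and in the NK cells 681 of 697. When cells with at least 10 UMIs of neutrophil genes were left out, all 103 log2 ratios of the 7 genes tested in 8 classes stayed within their intervals. Among these 8 classes such cells lay only in cycling CD8 T, NK and B cells, so ratios in the others could not change. Cycling CD4 T cells were not among the 8. Hepatocyte genes reached 448 CPM in NKT-type cells of ConA+FICZ, plasma cell genes 612 CPM in B cells of ConA+Veh, and globin genes 4015 and 1106 CPM in other T cells of Naïve and ConA+Veh. Phagocyte genes summed to no more than 40.5 CPM in any T, NK or B cell class. This sum was held down by the choice of cells, which allowed at most 1 UMI of *Csf1r*, *Adgre1*, *Cd68* and *C1qa* together.

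On the GRCm38 assembly *Tnfrsf4* (ENSMUSG00000029075) lies on chromosome 4 from 156013843 to 156016612, and *Tnfrsf18* (ENSMUSG00000041954) follows it on the same strand from 156026164 to 156028895, with 9551 bases between them. *Tnfrsf9* (ENSMUSG00000028965) and *Tnfrsf1b* (ENSMUSG00000028599) are on chromosome 4 as well, from 150914562 to 150946102 and, on the minus strand, from 145213463 to 145246870. *Cd27* (ENSMUSG00000030336) is on chromosome 6 from 125232622 to 125237010 on the minus strand, *Cd40* (ENSMUSG00000017652) on chromosome 2 from 165055627 to 165072948, and *Cd40lg* (ENSMUSG00000031132) on chromosome X from 57212143 to 57224042. All 7 are protein-coding. Genes on the opposite strand overlap 3 of them, *Camta1* at *Tnfrsf9*, the antisense transcript *Gm16008* at *Tnfrsf18* and *Vamp1* at *Cd27*. Whether strand was used in counting is not given in the sources used here, so reads from these pairs might be exchanged. *Gm16008* held 4 to 7 UMIs per library.

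The sequences before the starts of the 3 inducible receptors and of *Tnfrsf1b* are shown so that the letters read by NF-κB, a factor of T cell activation, and by the AhR can be looked for in them. A κB motif, the binding sequence of NF-κB, or a GCGTG core, the binding sequence of the AhR and its partner, is in capitals. They are the 250 bases 5′ of a RefSeq transcript start on GRCm38.p6, on the strand of the gene. The *Tnfrsf4* window is chr4:156013445-156013694, that of the second *Tnfrsf9* start chr4:150927749-150927998, that of *Tnfrsf18* chr4:156026072-156026321 and that of *Tnfrsf1b*, on the minus strand, chr4:145246871-145247120.
Tnfrsf4: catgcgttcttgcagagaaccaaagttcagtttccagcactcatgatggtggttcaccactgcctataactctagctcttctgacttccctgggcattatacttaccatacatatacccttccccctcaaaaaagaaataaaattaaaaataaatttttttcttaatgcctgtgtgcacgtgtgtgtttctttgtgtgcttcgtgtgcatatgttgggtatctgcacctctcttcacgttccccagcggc
Tnfrsf9: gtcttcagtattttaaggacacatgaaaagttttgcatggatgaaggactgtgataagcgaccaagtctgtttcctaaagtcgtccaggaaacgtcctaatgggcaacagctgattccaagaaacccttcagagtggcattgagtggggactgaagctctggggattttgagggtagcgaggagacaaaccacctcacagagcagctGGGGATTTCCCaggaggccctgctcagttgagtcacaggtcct
Tnfrsf18: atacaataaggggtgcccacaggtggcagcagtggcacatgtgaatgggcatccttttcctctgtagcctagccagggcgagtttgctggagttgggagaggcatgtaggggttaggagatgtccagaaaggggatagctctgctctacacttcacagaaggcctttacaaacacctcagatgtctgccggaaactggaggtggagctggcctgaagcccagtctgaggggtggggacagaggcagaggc
Tnfrsf1b: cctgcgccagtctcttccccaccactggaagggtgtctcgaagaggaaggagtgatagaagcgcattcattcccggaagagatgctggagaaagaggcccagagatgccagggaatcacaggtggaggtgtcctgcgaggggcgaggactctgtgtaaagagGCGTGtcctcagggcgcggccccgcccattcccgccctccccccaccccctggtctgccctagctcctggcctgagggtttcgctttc
Only the window of the second *Tnfrsf9* start held a κB motif, in overlapping matches between bases -43 and -33, counted back from the start. This motif was found on either strand in 7.25% of 32851 windows of this length. Only the *Tnfrsf1b* window held GCGTG, from -88 to -84, and 28.2% of all windows held it on either strand. The windows of the first *Tnfrsf9* start and of *Cd27* held neither sequence. A match of letters was the only thing examined, and binding was not measured.

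The 7 genes divided the liver lymphocytes by type. Of all UMIs of a gene in the 4 libraries, T cells held 90.6% (89.7 to 91.5%) for *Tnfrsf4*, 92.1% (89.9 to 93.9%) for *Cd40lg* and 84.1% (82.8 to 85.4%) for *Cd27*. T cells held 74.8% (73.4 to 76.2%) of the *Tnfrsf18* UMIs and 69.8% (68.2 to 71.4%) of the *Tnfrsf9* UMIs, and NK cells a further 7.73% and 13.7%. *Tnfrsf1b* was the most widely spread, with 38.7% (36.2 to 41.2%) in T cells and 20.3% (18.3 to 22.4%) in phagocytes. *Cd40* was the reverse of the T cell genes, with 71.4% (68.8 to 73.9%) of its 1234 UMIs in B cells, 12.9% in phagocytes, 5 UMIs in T cells and none in NK cells. B cells held 93.3% (89.7 to 95.9%) of them in Naïve, against 58.1% (53.2 to 62.9%), 62.0% (54.2 to 69.5%) and 74.0% (69.2 to 78.5%) in ConA+Veh, ConA+TCDD and ConA+FICZ, and the share in phagocytes lay between 3.55% in Naïve and 18.6% in ConA+Veh. Cells in no class held 2.84%, 23.1%, 25.3% and 11.5% of the *Cd40* UMIs in the 4 libraries. B cells were 51.5%, 27.1%, 19.7% and 29.7% of the cells of the libraries, and the part of this in the *Cd40* shares was not tested. *Cd40lg* had none of its 747 UMIs in NK cells or phagocytes.

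*Tnfrsf4*, which encodes OX40, was higher in CD4 T cells than in CD8 T, NK and B cells in all 4 libraries. Its level was 173 CPM (127 to 230) in CD4 T cells of Naïve, 386 (351 to 423) in ConA+Veh, 452 (411 to 496) in ConA+TCDD and 409 (370 to 451) in ConA+FICZ. In CD8 T cells it was 14.8 (7.09 to 27.2), 47.2 (41.3 to 53.7), 50.7 (43.4 to 58.9) and 48.0 CPM (41.3 to 55.6) in the same order. CD4 T cells thus had 11.7, 8.17, 8.91 and 8.52 times the level of CD8 T cells. B cells had no more than 1.81 CPM and NK cells no more than 4.03 CPM in any library. Other T cells were below CD4 T cells in each library, at 82.9, 321, 191 and 360 CPM. They held 476 of the *Tnfrsf4* UMIs of ConA+Veh, against 464 in CD4 T cells. All 3 ConA libraries were above Naïve in both CD4 and CD8 T cells, and they lay close to each other.

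The log2 ratio of ConA+Veh over Naïve for *Tnfrsf4* was 1.16 (0.72 to 1.62) in CD4 T cells, 1.67 (0.77 to 2.75) in CD8 T cells 1.96 (1.49 to 2.45) in other T cells and 1.36 (1.07 to 1.66) over all T cells. Of all genes with at least 20 UMIs in both libraries together, 12.0% were at least 2-fold higher in CD4 T cells, 15.7% in CD8 T cells, 9.79% in other T cells and 9.39% over all T cells. In Naïve, 6 of the 10 *Tnfrsf4* UMIs of CD8 T cells and 17 of the 47 of CD4 T cells came from 1 cell each. Without, in each library, the cell with the most *Tnfrsf4* UMIs, the ratio was 2.84 in CD8 T cells and 1.47 in CD4 T cells, and as a mean over cells in place of a sum it was 2.71 in CD4 T cells. The cycling CD4 T cells had a log2 ratio of 0.33 (-0.19 to 0.89). The non-cycling ones had *Tnfrsf4* at 98.0 CPM (53.6 to 164) in Naïve, from 14 UMIs in 5 of 51 cells, and at 617 CPM (525 to 720) in ConA+Veh, from 160 UMIs in 27 of 44 cells. With TCDD and FICZ they had 508 (416 to 614) and 428 CPM (372 to 490), so the ConA libraries stood above Naïve with no overlap. The log2 ratio of ConA+Veh over Naïve there was 2.65 (1.87 to 3.56), where 21.6% of the genes tested were at least 2-fold higher. It was 3.19 without the leading cells, 3.68 when each marker limit was raised by 1 UMI and 1.74 when the cells were chosen at 1000 UMIs.

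More cells carried *Tnfrsf4* after ConA, also at equal depth. At 1000 UMIs per cell it was detected in 3.57% (0.435 to 12.3%) of CD4 T cells of Naïve and in 36.5% (27.3 to 46.6%), 30.7% (20.5 to 42.4%) and 29.4% (19.0 to 41.7%) of those of ConA+Veh, ConA+TCDD and ConA+FICZ. Without thinning the shares were 13.8%, 72.9%, 68.4% and 73.9%, at median depths of 2751.5, 6924, 9777 and 13082 UMIs. B cells, which lack OX40 and whose median depths were 2126, 4202, 3608 and 3613 UMIs, gave a background of 0.0958%, 0.569%, 0% and 0% at 1000 UMIs. The last of these, 0 of 727 cells, allows a share of up to 0.413%, and that of ConA+TCDD, 0 of 344, up to 0.872%. The CD4 T cells of the ConA libraries were above this background, whereas those of Naïve, with 2 of 56 cells, had an interval that overlapped it.

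**Figure D1:**
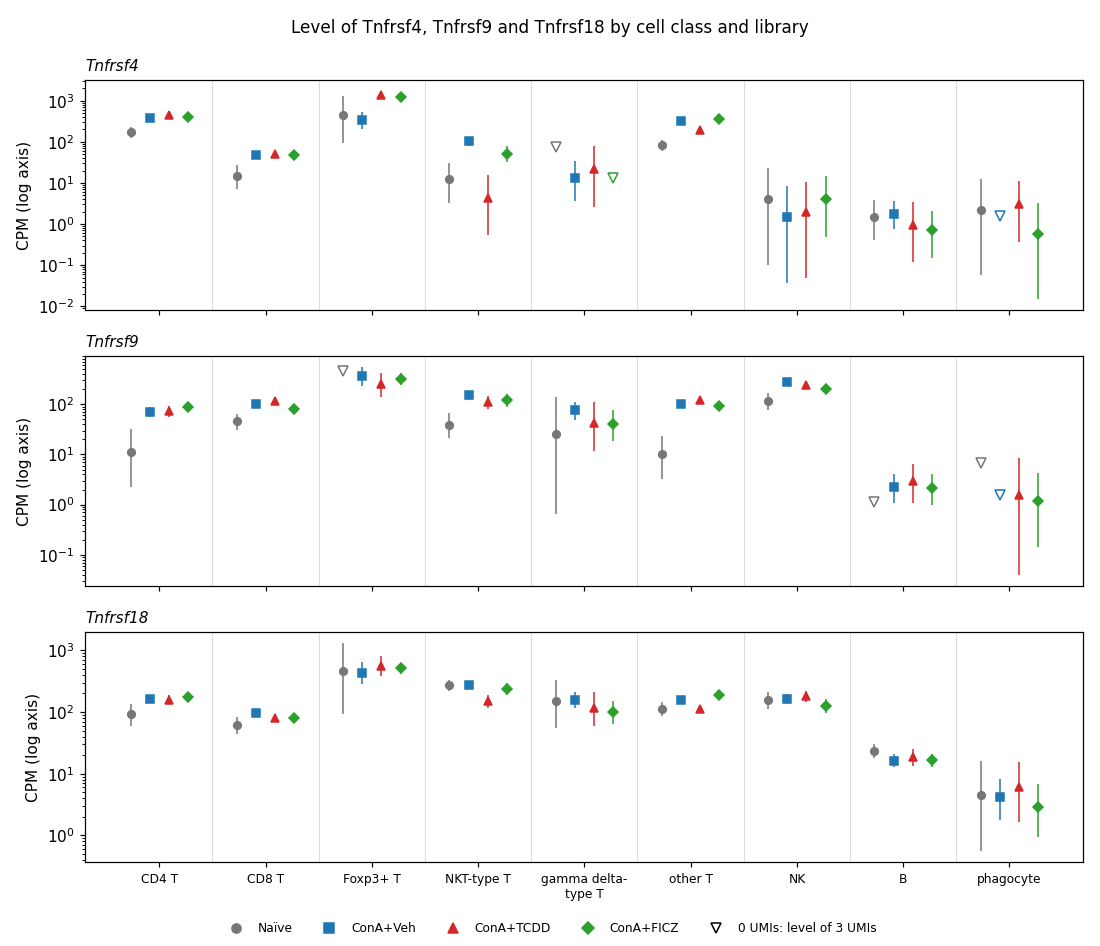
Level of *Tnfrsf4*, *Tnfrsf9* and *Tnfrsf18* (CPM, log axis) in 9 cell classes, with 1 point per library and exact 95% Poisson intervals as bars. Open triangles mark 0 UMIs, drawn at the level of 3 UMIs. *Tnfrsf4* in CD4 T cells lies at 173 CPM in Naïve and at 386 to 452 CPM in the ConA libraries, and *Tnfrsf9* in NK cells at 117 CPM and at 205 to 274 CPM.

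With TCDD or FICZ the level of *Tnfrsf4* over all CD4 or all CD8 T cells, cycling and non-cycling together, changed little. For ConA+TCDD over ConA+Veh its log2 ratio was 0.23 (0.04 to 0.42) in CD4 T cells and 0.10 (-0.19 to 0.40) in CD8 T cells, and for ConA+FICZ over ConA+Veh it was 0.09 (-0.11 to 0.28) and 0.03 (-0.27 to 0.31). Both comparisons use the same ConA+Veh library, as does that with Naïve, so they are not independent. In cycling CD8 and CD4 T cells the ratio with TCDD was 0.51 and 0.44. Without the leading cells it was 0.31 (-0.10 to 0.72) and 0.33 (0.09 to 0.58). With FICZ the ratio there was -0.18 and 0.28. Cycling cells were 4 of 167, 280 of 386, 142 of 270 and 132 of 243 CD8 T cells in the 4 libraries. The part of this in the ratios over all CD8 T cells was not tested. In other T cells, of which ConA+Veh had 186 and ConA+TCDD 236, the log2 ratio to ConA+Veh was -0.75 (-0.97 to -0.54) with TCDD. It was 0.16 (-0.03 to 0.35) with FICZ. Without the leading cells these ratios were -0.72 and 0.16. Some smaller classes of T cells differed more. In non-cycling CD8 T cells the level of *Tnfrsf4* was 14.6 CPM (6.66 to 27.6) in Naïve, 117 (93.7 to 144) in ConA+Veh, 56.2 (41.5 to 74.2) in ConA+TCDD and 100 (81.0 to 122) in ConA+FICZ. For ConA+Veh over Naïve the ratio was 3.0 (2.01 to 4.18), where 9.68% of the genes tested were at least 2-fold higher. ConA+TCDD was the lowest of the ConA libraries, with a log2 ratio to ConA+Veh of -1.05 (-1.59 to -0.54), where 4.81% of the genes tested were at least 2-fold lower. It carried *Tnfrsf4* in 14 of 128 cells against 12 of 106 in ConA+Veh, and the number of UMIs in the cell with the most was 9 against 24. Without these 2 cells the ratio was -0.92 (-1.53 to -0.33), and when the cells were chosen at 1000 UMIs it was 1.09, the other direction.

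In Foxp3+ T cells, of which there were 3, 7, 14 and 19, the level of *Tnfrsf4* was 455 CPM (93.8 to 1329) in Naïve, 332 (200 to 519) in ConA+Veh, 1401 (1106 to 1751) in ConA+TCDD and 1207 (1044 to 1387) in ConA+FICZ. The UMIs came from 2, 6, 13 and 19 cells. The ConA libraries with an AhR ligand were above ConA+Veh, with log2 ratios of 2.08 (1.34 to 2.88) for ConA+TCDD and 1.86 (1.18 to 2.62) for ConA+FICZ. Of the genes tested in these cells 6.75% and 10.4% were at least 2-fold higher. The ratios rest on 7 cells of ConA+Veh. Without the cell with the most *Tnfrsf4* UMIs in each library they were 2.33 (1.35 to 3.47) and 2.26 (1.34 to 3.35). *Ikzf2*, a gene of regulatory T cells, was detected in 66.7%, 71.4%, 64.3% and 57.9% of the Foxp3+ cells unthinned, at median depths of 1990, 5567, 2792.5 and 8003 UMIs, and in 2 of 3, 2 of 7, 3 of 13 and 4 of 18 cells at 1000 UMIs. Unthinned, *Mki67*, a cell cycle gene, was in 57.1%, 7.14% and 31.6% of those of ConA+Veh, ConA+TCDD and ConA+FICZ. In the same order *Cd4* was in 71.4%, 35.7% and 42.1% and *Il2ra* in 42.9%, 64.3% and 94.7%. At 1000 UMIs *Il2ra* was in 28.6%, 38.5% and 22.2%. The part of these in the *Tnfrsf4* ratios was not tested.

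NKT-type cells, the T cells with *Zbtb16* or *Klrb1c* and without CD8 UMIs, had a level of *Tnfrsf4* that depended on 1 cell. It was 12.2 CPM (3.31 to 31.1) in Naïve, 102 (77.3 to 132) in ConA+Veh, 4.38 (0.530 to 15.8) in ConA+TCDD and 51.8 (31.7 to 80.1) in ConA+FICZ. Of the 58 UMIs of ConA+Veh, 46 lay in 1 cell. Without the leading cell of each library the levels were 3.15, 22.6, 2.23 and 35.7 CPM. The log2 ratio of ConA+TCDD over ConA+Veh was -4.54 (-7.62 to -2.62) with these cells and -3.34 (-8.76 to -0.59), from 1 and 12 UMIs, without them. Of the genes tested 3.50% were at least 2-fold lower. The ratio of ConA+Veh over Naïve was 3.07 (1.63 to 4.99) with them, 2.85 (0.09 to 8.26) without them and 0.78 when the 2% of cells with the most UMIs were left out. That of ConA+FICZ over ConA+Veh was -0.97 (-1.79 to -0.22) with them and 0.66 (-0.59 to 1.92) without, so its direction was set by 1 cell.

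*Tnfrsf9*, which encodes 4-1BB, was found in both T and NK cells. In NK cells its level was 117 CPM (78.3 to 168) in Naïve, 274 (236 to 317) in ConA+Veh, 242 (202 to 289) in ConA+TCDD and 205 (167 to 249) in ConA+FICZ. In CD8 T cells it was 45.9 (31.2 to 65.1), 103 (94.2 to 113), 116 (105 to 128) and 82.4 CPM (73.4 to 92.1), and in CD4 T cells 11.1 (2.28 to 32.3), 69.8 (55.7 to 86.5), 72.6 (56.7 to 91.6) and 88.4 CPM (70.8 to 109). NK cells had 2.55, 2.66, 2.08 and 2.49 times the level of CD8 T cells. Unlike *Tnfrsf4*, it was not higher in CD4 than in CD8 T cells in 3 of the libraries, where the log2 ratio of CD4 over CD8 T cells was -2.05, -0.56 and -0.68, and in ConA+FICZ that ratio was 0.10 (-0.26 to 0.45). In each of these classes the ConA libraries were above Naïve, with the interval of ConA+FICZ in NK cells just meeting that of Naïve.

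For ConA+Veh over Naïve the log2 ratio of *Tnfrsf9* was 1.23 (0.66 to 1.85) in NK cells, 1.17 (0.64 to 1.74) in CD8 T cells, 2.66 (1.06 to 4.97) in CD4 T cells, 1.95 (1.10 to 2.92) in NKT-type cells and 3.34 (2.09 to 4.99) in other T cells. In NK and NKT-type cells 9.96% and 6.85% of the genes tested were at least 2-fold higher. All 3 *Tnfrsf9* UMIs of Naïve CD4 T cells were in 1 cell, and 16 of the 31 of Naïve CD8 T cells were in 1 cell. Without the leading cells the ratio in CD8 T cells was 2.13 (1.39 to 2.98). When each marker limit was raised by 1 UMI it was 1.28 in CD4 T cells. In NKT-type cells it was 0.85 when each marker limit was raised by 1 UMI and 0.76 when the cells were chosen at 1000 UMIs. Neutrophil genes in the NK cells were at 32.3 CPM in Naïve and 11.9 CPM in ConA+Veh.

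At 1000 UMIs per cell *Tnfrsf9* was detected in 9 of 100 NK cells of Naïve (4.20 to 16.4%), 18.5% (13.0 to 25.1%) of ConA+Veh, 17.8% (11.7 to 25.5%) of ConA+TCDD and 18.2% (12.0 to 25.8%) of ConA+FICZ. The interval of Naïve overlapped that of each ConA library. The unthinned shares were 15.7%, 40.9%, 40.7% and 36.4%, at median depths of 1784, 2660, 2599.5 and 2855 UMIs. In CD8 T cells the thinned shares were 1.22% (0.148 to 4.34%), 10.5% (7.63 to 14.1%), 12.9% (9.09 to 17.5%) and 8.26% (5.12 to 12.5%). The background in B cells was 0%, 0.284%, 0.581% and 0.138%, the first from 1044 cells, which allows up to 0.287%. The NK cells of all libraries and the CD8 T cells of the ConA libraries were above this background.

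With TCDD *Tnfrsf9* stayed near its ConA+Veh level in all T, CD8 T and NK cells, and with FICZ it was lower there by less than 2-fold. Over all T cells its level was 29.2, 102, 111 and 91.3 CPM in the 4 libraries, and the log2 ratio to ConA+Veh was 0.11 (-0.03 to 0.25) with TCDD and -0.17 (-0.32 to -0.01) with FICZ. In NK cells these ratios were -0.18 (-0.52 to 0.16) and -0.42 (-0.78 to -0.06). They were 0.17 and -0.32 in CD8 T cells, and 0.19 (-0.01 to 0.39) and -0.37 (-0.59 to -0.16) there without the leading cells. In CD4 T cells they were 0.06 and 0.34. In Foxp3+ T cells *Tnfrsf9* was at 367, 255 and 323 CPM in ConA+Veh, ConA+TCDD and ConA+FICZ, which was 5.26, 3.51 and 3.66 times the level of CD4 T cells. These levels came from 21, 14 and 53 UMIs, and were 259, 204 and 278 CPM without the leading cell of each library. The 3 Foxp3+ cells of Naïve had none of its UMIs, which allows up to 455 CPM.

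*Tnfrsf18*, which encodes GITR, was present over all T cells and in NK and NKT-type cells of Naïve at levels near those of ConA+Veh. Its level over all T cells was 121 CPM (106 to 138) in Naïve, 134 (127 to 142) in ConA+Veh, 110 (102 to 118) in ConA+TCDD and 135 (126 to 144) in ConA+FICZ. In NK cells it was 157 (112 to 215), 164 (135 to 197), 182 (147 to 223) and 127 CPM (98.1 to 163). In NKT-type cells it was 270 (217 to 333), 276 (234 to 322), 149 (116 to 189) and 238 CPM (192 to 292), with ConA+TCDD the lowest. The intervals of Naïve and ConA+Veh overlapped in all of these classes. NKT-type cells, at the highest of these levels in Naïve, were 85 of 498 T cells there and 78 of 801 in ConA+Veh. The part of this in the level over all T cells was not tested.

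The log2 ratio of ConA+Veh over Naïve for *Tnfrsf18* was 0.15 (-0.06 to 0.37) over all T cells, 0.06 (-0.48 to 0.62) in NK cells and 0.03 (-0.36 to 0.42) in NKT-type cells. CD4 and CD8 T cells were higher after ConA, at 92.1 and 165 CPM in CD4 T cells and 60.6 and 97.9 CPM in CD8 T cells, with log2 ratios of 0.84 (0.23 to 1.5) and 0.69 (0.23 to 1.19), each under 2-fold. In other T cells the ratio was 0.48 (0.06 to 0.93). In CD4 T cells it was 1.88 when each marker limit was raised by 1 UMI. In the non-cycling CD4 and CD8 T cells it was 1.46 and 1.27, and 0.48 and 0.02 when the cells were chosen at 1000 UMIs. At 1000 UMIs per cell *Tnfrsf18* was detected in 7.14% (1.98 to 17.3%), 17.3% (10.6 to 26.0%), 9.33% (3.84 to 18.3%) and 17.6% (9.47 to 28.8%) of CD4 T cells, with overlapping intervals. B cells, at 16.3 to 23.4 CPM, gave 2.20%, 0.853%, 2.33% and 1.24%, and in Naïve and ConA+TCDD the intervals of CD4 T and B cells overlapped. With TCDD the ratio to ConA+Veh was -0.29 (-0.43 to -0.15) over all T cells, -0.89 (-1.32 to -0.47) in NKT-type cells and -1.10 (-1.57 to -0.64) in non-cycling CD8 T cells, the last from 152 and 71.1 CPM. When the cells were chosen at 1000 UMIs per cell the ratio was 0.15 in NKT-type cells and -0.08 in non-cycling CD8 T cells. The lower level in these classes was thus not seen with that choice of cells, and the cause was not tested. Without the leading cells the ratio was -0.76 (-1.22 to -0.31) in NKT-type cells and -1.05 (-1.55 to -0.57) in non-cycling CD8 T cells. For ConA+FICZ over ConA+Veh it was 0.00 (-0.13 to 0.13) over all T cells. By class it was -0.67 (-1.11 to -0.22) in non-cycling CD4 and -0.56 (-0.96 to -0.16) in non-cycling CD8 T cells. In other T cells it was 0.28 (0.01 to 0.55). Foxp3+ T cells had 437, 564 and 512 CPM in ConA+Veh, ConA+TCDD and ConA+FICZ, which was 2.66, 3.56 and 2.90 times the level of CD4 T cells. In ConA+Veh 15 of the 25 UMIs lay in 1 of its 7 Foxp3+ cells. Without the leading cell of each library the levels were 285, 510 and 453 CPM.

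A part of the T cells carried more than 1 of the 3 inducible receptors after ConA. Among T cells thinned to 1000 UMIs, *Tnfrsf18* was detected in 25.6% (16.9 to 35.8%) of the 90 cells with *Tnfrsf4* and in 12.5% (10.1 to 15.2%) of those without it in ConA+Veh. The shares were 19.4% (11.1 to 30.5%) and 7.88% (5.82 to 10.4%) in ConA+TCDD and 32.4% (21.5 to 44.8%) and 7.10% (4.97 to 9.78%) in ConA+FICZ. The intervals were apart in all 3 ConA libraries. For *Tnfrsf9* the shares with and without *Tnfrsf4* were 16.7% and 8.72% for ConA+Veh, 26.4% and 10.8% for ConA+TCDD, 19.1% and 8.14% for ConA+FICZ, and the intervals overlapped in ConA+Veh and ConA+FICZ. In Naïve only 9 thinned T cells held *Tnfrsf4*. Exactly 2 of the 3 receptors were detected in 0.211% of thinned T cells of Naïve and in 5.53%, 4.12% and 5.85% of those of ConA+Veh, ConA+TCDD and ConA+FICZ, and all 3 in 0%, 0.514%, 0.915% and 0.731%. Cells of more than 1 subset, and pairs of cells in 1 droplet, are pooled in these shares.

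*Tnfrsf1b*, the receptor TNFR2, was higher in NK cells than in T cells. Its level over all T cells was 27.0 CPM (19.9 to 35.6) in Naïve, 27.7 (24.3 to 31.5) in ConA+Veh, 27.5 (23.6 to 31.8) in ConA+TCDD and 16.3 (13.4 to 19.7) in ConA+FICZ. In NK cells it was 56.5 (30.9 to 94.7), 81.9 (61.7 to 107), 75.6 (53.8 to 103) and 57.7 CPM (38.7 to 82.9), which was 2.09, 2.96, 2.75 and 3.53 times the T cell level. In phagocytes it was 104 (76.1 to 139), 58.2 (47.9 to 70.0), 32.1 (19.9 to 49.1) and 70.6 CPM (58.6 to 84.4). ConA+FICZ was the lowest library in T cells and ConA+TCDD the lowest in phagocytes. Naïve, ConA+Veh and ConA+TCDD could not be told apart in T cells.

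For ConA+FICZ over ConA+Veh the log2 ratio of *Tnfrsf1b* was -0.76 (-1.10 to -0.43) over all T cells, -0.98 (-1.47 to -0.51) in CD8 T cells and -1.16 (-2.30 to -0.12) in CD4 T cells, where it rests on 11 and 30 UMIs and was -0.30 when each marker limit was raised by 1 UMI. Neutrophil genes in the CD4 T cells were at 1876 CPM in ConA+FICZ and 8.31 CPM in ConA+Veh, and without the 1 cell that held nearly all of them the ratio was -1.14 (-2.29 to -0.10). In CD4 T cells 4.99% of the genes tested were at least 2-fold lower. With TCDD the ratio to ConA+Veh was -0.01 (-0.30 to 0.28) over all T cells and -0.86 (-1.60 to -0.18) in phagocytes. The latter compares 38 cells with 175, in which phagocyte genes were at 2956 and 7715 CPM and neutrophil genes at 555 and 2757 CPM. Without cells of at least 10 neutrophil UMIs the ratio was -0.89 (-1.67 to -0.18), and the part of the lower level of phagocyte genes was not tested. At 1000 UMIs per cell the shares of T cells with a UMI were 4.43% (2.76 to 6.69%), 3.34% (2.19 to 4.86%), 2.74% (1.63 to 4.30%) and 2.38% (1.27 to 4.03%), so that a difference with FICZ was not detectable in the share of cells at this depth. B cells had 0.575%, 0.996%, 0.872% and 0.825%, and in ConA+TCDD and ConA+FICZ the intervals of T and B cells overlapped.

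*Cd27*, a receptor of resting and stimulated T cells, varied little in CD4 and CD8 T cells. Its level in CD8 T cells was 123 CPM (97.8 to 152) in Naïve, 127 (117 to 138) in ConA+Veh, 126 (114 to 139) in ConA+TCDD and 122 (111 to 133) in ConA+FICZ. In CD4 T cells it was 103 (68.6 to 149), 115 (96.4 to 136), 104 (85.1 to 127) and 121 CPM (100 to 145). All intervals overlapped, between libraries and between CD4 and CD8 T cells. Over all T cells ConA+Veh over Naïve gave a log2 ratio of -0.09 (-0.30 to 0.12), and to ConA+Veh it was -0.19 (-0.34 to -0.05) with TCDD and -0.03 (-0.17 to 0.10) with FICZ. In other T cells the ratio to ConA+Veh was -0.76 (-1.11 to -0.41) with TCDD and -0.25 (-0.60 to 0.10) with FICZ. The shares of these cells with *Cd4* and *Mki67* differed between the libraries, as given above, and the part of this was not tested.

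In NK cells *Cd27* was at 92.8 CPM (58.8 to 139) in Naïve, 71.5 (52.7 to 94.8) in ConA+Veh, 34.9 (20.7 to 55.2) in ConA+TCDD and 55.7 (37.0 to 80.6) in ConA+FICZ. The log2 ratio of ConA+TCDD over ConA+Veh was -1.03 (-1.90 to -0.23), from 18 and 48 UMIs, where 3.65% of the genes tested were at least 2-fold lower. It was -0.14 when the NK cells were chosen at 1000 UMIs per cell. The neutrophil genes of these NK cells were at 1352 CPM in ConA+TCDD with 4 of 4 markers detected, nearly all in 1 cell, and without that cell the ratio was -1.02 (-1.89 to -0.22). B cells of Naïve had no *Cd27* UMI among 1074 cells, against 6.34 CPM (4.21 to 9.16) in ConA+Veh, 4.89 (2.34 to 8.99) in ConA+TCDD and 2.14 (0.980 to 4.07) in ConA+FICZ. Set against a floor of 3 UMIs in Naïve, the log2 ratio of ConA+Veh was at least 2.49, the lower limit of its exact interval was 2.09, and 8.87% of the genes tested in B cells were at least 2-fold higher. At 1000 UMIs per cell no more than 0.284% of B cells held one. Unthinned, *Cd8a* was in 0.0931%, 1.73%, 2.43% and 0.791% of the B cells, and *Cd4* in 0.0931%, 0.266%, 0.270% and 0%. Their median depths were 2126, 4202, 3608 and 3613 UMIs. Phagocytes had 0 *Cd27* UMIs in the 67 cells of Naïve, and 3.63, 15.3 and 1.75 CPM in the ConA libraries. Whether T cell RNA or pairs of cells in 1 droplet gave the *Cd27* UMIs of B cells was not tested.

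**Figure D2:**
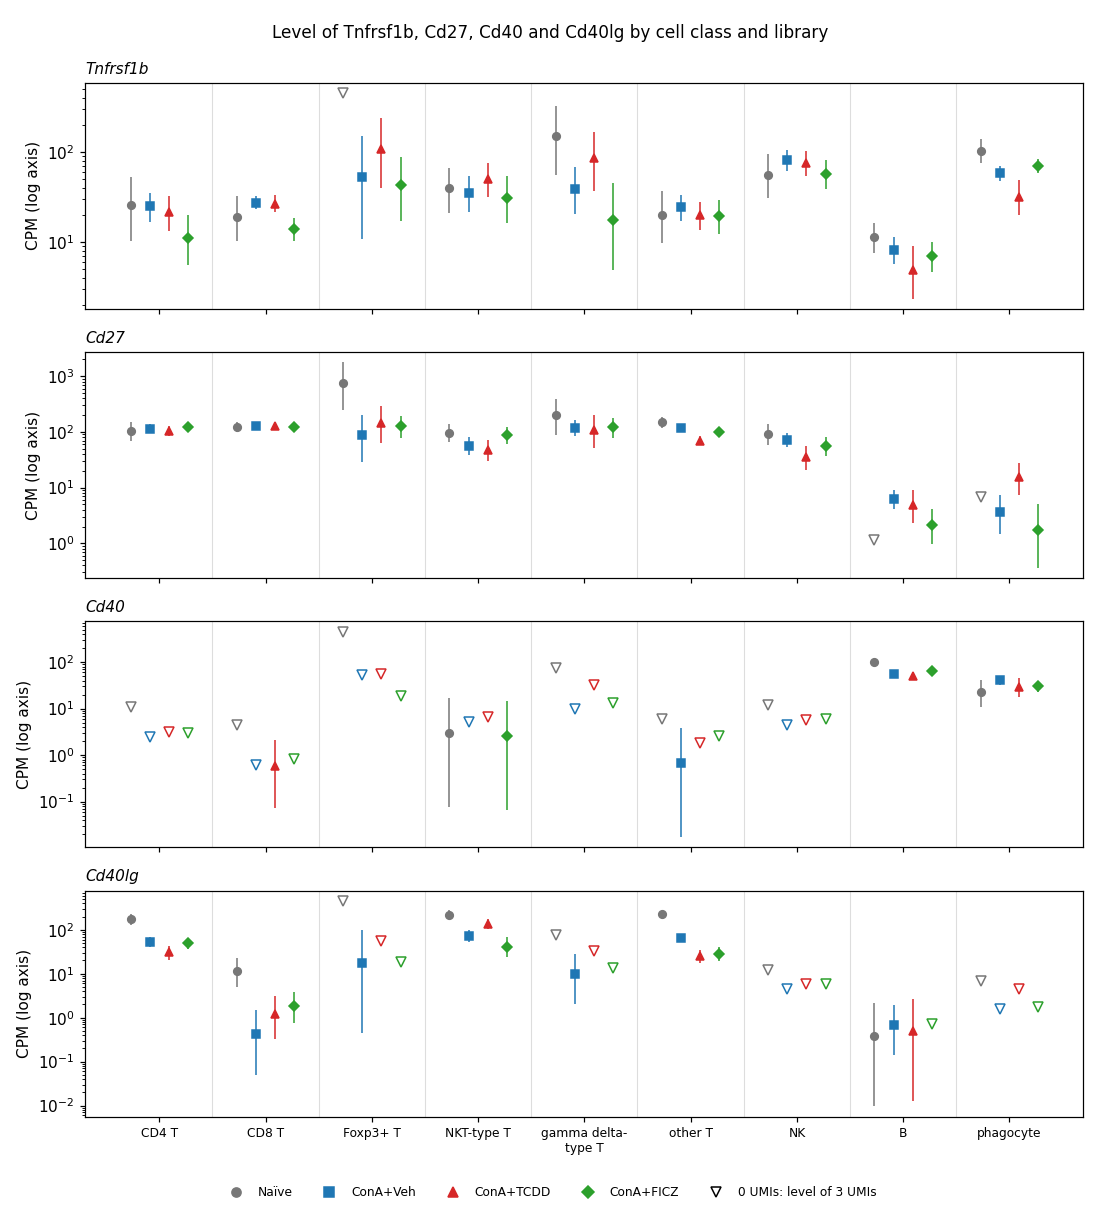
Level of *Tnfrsf1b*, *Cd27*, *Cd40* and *Cd40lg* (CPM, log axis) in the same 9 classes, with 1 point per library and exact 95% Poisson intervals as bars, and open triangles for 0 UMIs, drawn at the level of 3 UMIs. *Cd27* in CD8 T cells stays between 122 and 127 CPM, *Cd40* is measurable in B cells and phagocytes, and *Cd40lg* in CD4 T cells is at 173 CPM in Naïve and at 30.7 to 53.2 CPM in the ConA libraries.

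*Cd40*, the receptor through which helper T cells reach B cells, was lower in B cells after ConA. Its level there was 99.2 CPM (87.6 to 112) in Naïve, 55.2 (48.5 to 62.6) in ConA+Veh, 50.3 (41.1 to 61.0) in ConA+TCDD and 64.6 (57.1 to 72.7) in ConA+FICZ. All 3 ConA libraries were below Naïve with no overlap of intervals. The log2 ratio of ConA+Veh over Naïve was -0.85 (-1.10 to -0.59), under 2-fold, beside a median of -0.26 over all genes tested in B cells. For ConA+TCDD and ConA+FICZ over ConA+Veh it was -0.13 (-0.48 to 0.20) and 0.23 (-0.03 to 0.48).

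The share of B cells with *Cd40* at 1000 UMIs per cell was 7.47% (5.95 to 9.24%), 5.83% (4.22 to 7.83%), 5.81% (3.59 to 8.84%) and 7.02% (5.27 to 9.12%), and these intervals overlapped. Without thinning it was 19.5%, 22.2%, 18.9% and 22.7%, with no lower share after ConA. T cells gave 0 of 474, 778, 656 and 547 thinned cells, which allows shares of up to 0.633%, 0.386%, 0.457% and 0.548%. In phagocytes *Cd40* was at 22.6 CPM (10.8 to 41.5) in Naïve, 40.5 (32.0 to 50.5) in ConA+Veh, 29.0 (17.5 to 45.4) in ConA+TCDD and 30.3 (22.7 to 39.8) in ConA+FICZ. B cells had 4.39 times the phagocyte level in Naïve and 1.36, 1.73 and 2.13 times in the ConA libraries. Neutrophil genes in B cells were at 27.2, 522, 13.2 and 799 CPM. Without the cells that held at least 10 of their UMIs the log2 ratio of *Cd40* for ConA+Veh over Naïve was -0.84 (-1.10 to -0.58).

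*Cd40lg*, the ligand on helper T cells, went the other way from the inducible receptors. Over all T cells its level was 131 CPM (115 to 149) in Naïve, 24.7 (21.5 to 28.3) in ConA+Veh, 20.6 (17.3 to 24.4) in ConA+TCDD and 15.7 (12.9 to 19.1) in ConA+FICZ. In CD4 T cells it was at 173 (127 to 230), 53.2 (41.0 to 68.0), 30.7 (20.7 to 43.8) and 48.8 CPM (35.9 to 64.6), and in other T cells at 224 (185 to 270), 66.2 (53.7 to 80.7), 24.8 (17.7 to 33.8) and 28.8 CPM (19.9 to 40.2). Naïve was the highest library in each of these classes, with no overlap. CD8 T cells had 8, 2, 4 and 7 UMIs, or 11.8, 0.414, 1.19 and 1.88 CPM, so CD4 T cells stood 14.6 times above CD8 T cells in Naïve and 129, 25.7 and 26.0 times above them in the ConA libraries.

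For ConA+Veh over Naïve the log2 ratio of *Cd40lg* was -2.41 (-2.68 to -2.14) over all T cells, -1.70 (-2.27 to -1.13) in CD4 T cells, -1.76 (-2.17 to -1.36) in other T cells and -1.62 (-2.21 to -1.05) in NKT-type cells. Of the genes tested 15.4% were at least 2-fold lower over all T cells, 9.09% in CD4 T cells, 16.2% in other T cells and 14.5% in NKT-type cells. CD8 T cells, which held little *Cd40lg*, were 167 of 498 T cells in Naïve and 386 of 801 in ConA+Veh, and the part of this in the ratio over all T cells was not tested. At 1000 UMIs per cell *Cd40lg* was detected in 12.0% (9.24 to 15.3%) of T cells of Naïve and in 3.60% (2.40 to 5.16%), 2.13% (1.17 to 3.55%) and 2.01% (1.01 to 3.57%) of those of the ConA libraries. Unthinned, the shares were 27.1%, 12.4%, 10.1% and 10.2%, lower in the ConA libraries although their cells were deeper. B cells held it in 0.0958%, 0.284%, 0% and 0% of thinned cells.

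Of the CD4 T cells, the cycling ones had *Cd40lg* at 38.9 CPM (12.6 to 90.8), from 7 cells, in Naïve, 55.1 (41.2 to 72.3) in ConA+Veh, 35.2 (23.2 to 51.2) in ConA+TCDD and 48.5 (31.1 to 72.2) in ConA+FICZ. Their log2 ratio of ConA+Veh over Naïve was 0.50 (-0.81 to 2.18). The non-cycling CD4 T cells had 294 CPM (212 to 397) in Naïve and 46.3 (23.9 to 80.8) in ConA+Veh, a log2 ratio of -2.67 (-3.73 to -1.71), where 13.5% of the genes tested were at least 2-fold lower. The lower level was thus seen in the non-cycling cells, and the difference between them and cycling cells was not tested.

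In CD4 T cells the log2 ratio of *Cd40lg* to ConA+Veh was -0.79 (-1.47 to -0.15) with TCDD and -0.11 (-0.68 to 0.45) with FICZ. Over all T cells it was -0.26 (-0.58 to 0.06) and -0.64 (-0.99 to -0.29). These values leave out cells with at least 10 UMIs of neutrophil genes. In other T cells the log2 ratios were -1.41 (-1.98 to -0.87) for ConA+TCDD and -1.20 (-1.81 to -0.62) for ConA+FICZ. In these cells 7.47% and 4.02% of the genes tested were at least 2-fold lower. Globin genes in them were at 1106, 835 and 0.847 CPM in ConA+Veh, ConA+TCDD and ConA+FICZ, and *Cd52*, a gene of nearly all lymphocytes, was detected in 77.9%, 24.3% and 64.1% of them at 1000 UMIs per cell. Unthinned, *Cd4* was in 22.6%, 6.78% and 16.9% of them. The part of these in the difference was not tested. In NKT-type cells *Cd40lg* was at 222 CPM (174 to 279) in Naïve, 72.0 (51.6 to 97.6) in ConA+Veh, 134 (102 to 172) in ConA+TCDD and 41.5 (23.7 to 67.3) in ConA+FICZ. ConA+TCDD was above ConA+Veh there, with a ratio of 0.89 (0.30 to 1.5). Of its 61 UMIs 17 lay in 1 cell, and without the leading cells the ratio was 0.65 (-0.02 to 1.32). With NKT-type cells chosen at 1000 UMIs per cell, ConA+TCDD had no *Cd40lg* UMI in them.

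**Figure D3:**
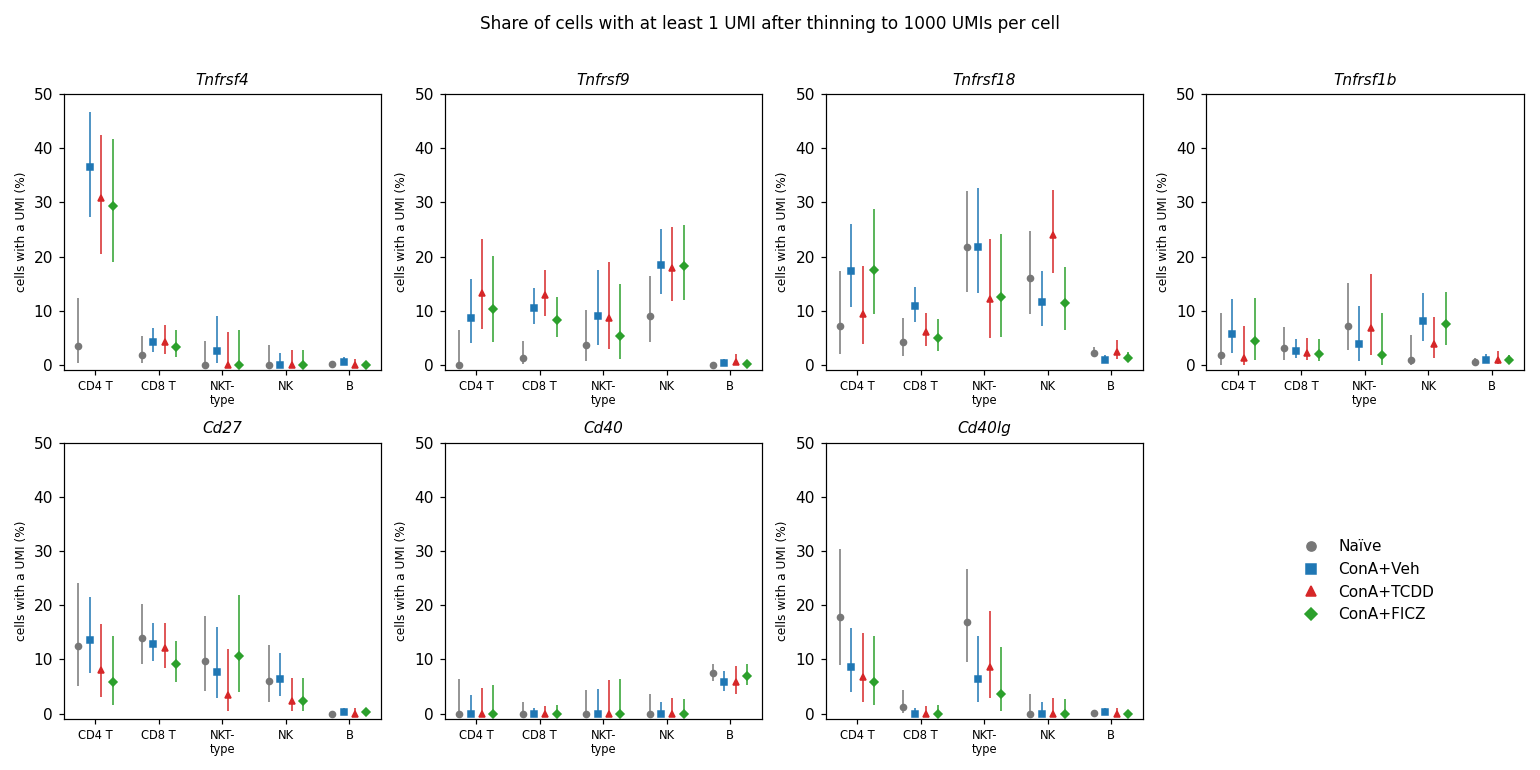
Share of cells with at least 1 UMI of each gene (percent, linear axis) after thinning to 1000 UMIs per cell, by class and library, with exact (Clopper-Pearson) 95% intervals as bars. *Tnfrsf4* in CD4 T cells is at 3.57% in Naïve and at 29.4 to 36.5% in the ConA libraries, and *Cd40lg* in CD4 T cells at 17.9% in Naïve and at 5.88 to 8.65%.

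The genes were then counted over 8 classes, leaving out CD4 cycling and other T cells, wherever a gene had at least 20 UMIs in both libraries together. For ConA+Veh over Naïve, 13 of 35 pairs of gene and class were at least 2-fold higher, against 16.6% of all pairs of gene and class tested, and 2 were at least 2-fold lower, against 14.9%. The intervals of 10 of the 13 lay above 0. Those higher were of *Tnfrsf4*, *Tnfrsf9* and *Tnfrsf18* in T cells, *Tnfrsf9* in NK cells and *Cd27* in B cells, and both lower were of *Cd40lg*. By class, with the share of all genes tested that were higher, the higher pairs were 3 in non-cycling CD4 T cells (21.6%), 3 in non-cycling CD8 T cells (9.68%), 1 in cycling CD8 T cells (34.5%), 1 in Foxp3+ T cells (31.7%), 1 in gamma delta-type T cells (27.7%), 2 in NKT-type cells (6.85%), 1 in NK cells (9.96%) and 1 in B cells (8.87%). The lower pairs were 1 in non-cycling CD4 T cells (13.5%) and 1 in NKT-type cells (14.5%). In cycling CD4 T cells, which were not among the 8 classes, *Tnfrsf9* and *Tnfrsf1b* had ratios of 1.09 (-0.54 to 3.42) and 1.45 (-1.20 to 6.82), where 15.3% of the genes were higher. Only 5 of the classes had at least 20 cells in both libraries, and in them 10 of 24 pairs were higher, against 10.0%, and 2 lower, against 15.4%. Among the 13 higher pairs, Naïve alone reached 20 UMIs for *Tnfrsf9* in non-cycling CD8 T (27) and NK cells (29). It did so also for *Tnfrsf18* in non-cycling CD8 T cells (39). The rest passed the limit only through their UMIs in ConA+Veh. Of those, 4 had 0 or 1 UMI in Naïve, namely *Tnfrsf9* in non-cycling CD4, Foxp3+ and gamma delta-type T cells and *Cd27* in B cells. With at least 50 UMIs required in both libraries together, 9 pairs were higher. ConA+Veh alone can pass this limit as well, and no share of all pairs is given for it. Pairs of 1 gene share the libraries and are not independent.

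For ConA+TCDD over ConA+Veh, 2 of 35 pairs were at least 2-fold higher, against 2.37% of all pairs tested, and 5 were lower, against 4.30%. The higher ones were *Tnfrsf4* in Foxp3+ T cells and *Tnfrsf1b* in gamma delta-type T cells, and for the latter the interval of 1.12 (-0.37 to 2.54) included 0 and 2.43% of the genes tested were higher. The lower ones were *Tnfrsf4* and *Tnfrsf18* in non-cycling CD8 T cells, *Tnfrsf4* in NKT-type cells, *Cd27* in NK cells and *Tnfrsf9* in non-cycling CD4 T cells. The last had 71.2 CPM (39.9 to 117) against 143 (100 to 197) in ConA+Veh, and 0 UMIs in Naïve, which allows up to 21.0 CPM. Its ratio was -1.0 (-1.97 to -0.10), where 6.06% of the genes were lower, and 0.50 when each marker limit was raised by 1 UMI. In classes of at least 20 cells 0 of 28 pairs were higher, against 2.27%, and these same 5 were lower, against 3.51%. For ConA+FICZ over ConA+Veh, 1 of 36 pairs was higher, against 3.37%, and 2 were lower, against 4.26%. The higher one was *Tnfrsf4* in Foxp3+ T cells. The lower ones were *Tnfrsf1b* in non-cycling CD8 T cells at -1.02 (-2.25 to 0.14) and *Cd27* in B cells at -1.56 (-2.83 to -0.44). In these classes 3.05% and 2.53% of the genes were lower. In classes of at least 20 cells these were 0 of 32, against 3.11%, and 2, against 4.11%. The remaining pairs, 28 of 35 with TCDD and 33 of 36 with FICZ, lay within 2-fold of ConA+Veh, as did most of all pairs of gene and class tested.

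**Figure D4:**
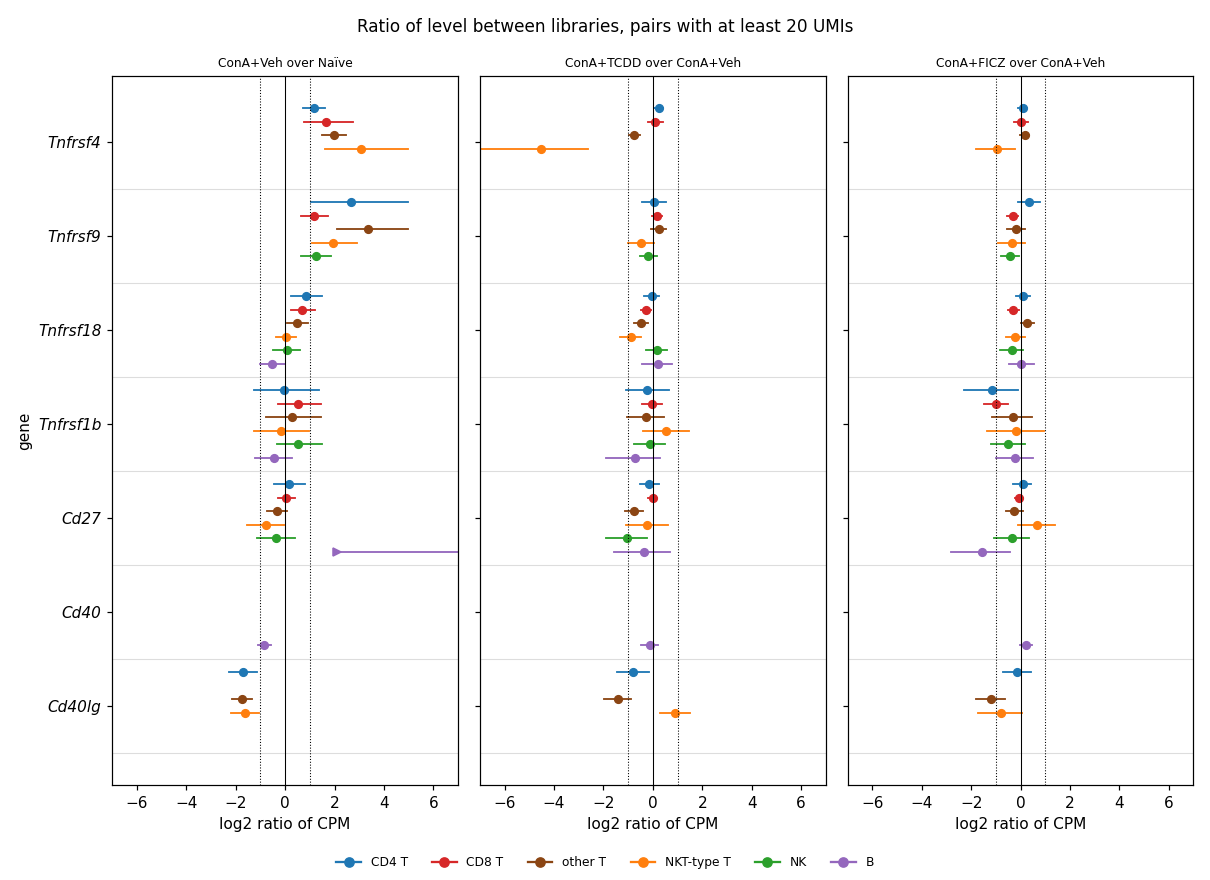
Log2 ratio of the level of each gene between libraries in 6 classes, with 95% binomial intervals for counting error, with 1 panel for ConA+Veh over Naïve and 1 each for ConA+TCDD and ConA+FICZ over ConA+Veh. Dotted lines mark 2-fold and the arrowhead the lower limit for *Cd27* in B cells, where Naïve had 0 UMIs. In the first panel *Tnfrsf4* and *Tnfrsf9* lie between 1.16 and 3.34 and *Cd40lg* between -1.76 and -1.62.

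Of the other ligands of these receptors, those of OX40, GITR and CD27 were scarce. *Tnfsf4*, the OX40 ligand, and *Tnfsf18*, the GITR ligand, had at most 4 UMIs in any of CD4 T, CD8 T, NKT-type, NK and B cells and phagocytes of a library, and *Cd70*, the ligand of CD27, at most 1. *Tnfsf9*, the 4-1BB ligand, was found in phagocytes, at 11.3 CPM in Naïve, 42.1 in ConA+Veh, 15.3 in ConA+TCDD and 39.7 in ConA+FICZ. ConA+Veh over Naïve gave a log2 ratio of 1.90 (0.62 to 3.56), and to ConA+Veh the ratio was -1.46 (-2.57 to -0.51) with TCDD and -0.08 (-0.57 to 0.40) with FICZ. Of the genes tested in phagocytes 6.51% were at least 2-fold higher in the first comparison and 7.04% lower in that with TCDD. In the 4 libraries, phagocyte genes in these cells were at 11615, 7715, 2956 and 8952 CPM and neutrophil genes at 614, 2757, 555 and 641 CPM, and their part in the values of *Tnfsf9* was not tested. In cycling CD8 T cells *Tnfsf9* was called at least 2-fold higher for ConA+Veh over Naïve. Naïve had only 4 such cells, with 57848 UMIs of all genes, against 4067845 in ConA+Veh. A gene of low level passes the limit of 20 UMIs there through ConA+Veh, so this call is not read as a rise. In the same cells *Tnfsf9* was at least 2-fold lower than in ConA+Veh with TCDD and with FICZ. Of the genes tested there 34.5% were higher in the first comparison, and 2.14% and 3.63% lower in the others. *Tnf*, a ligand of TNFR2, was at 45.2, 50.4, 52.0 and 57.8 CPM in phagocytes and at 20.7, 10.8, 2.39 and 5.64 CPM in CD8 T cells. *Lta*, another ligand of TNFR2, was at 15.2, 73.7, 4.38 and 15.6 CPM in NKT-type cells, and 15 of the 42 UMIs of ConA+Veh were in 1 cell.

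Beside the 7 genes, 24 other genes of the pathway were listed, 6 ligands, 9 other family members and 9 adaptors and feedback genes. For ConA+Veh over Naïve, 10 of their 74 pairs of gene and class were at least 2-fold higher and 21 lower, against the 16.6% and 14.9% given above. They were 4 and 11 of 73 for ConA+TCDD over ConA+Veh, against 2.37% and 4.30%, and 3 and 12 of 78 for ConA+FICZ over ConA+Veh, against 3.37% and 4.26%. Of the 10 higher after ConA, 8 were in cycling CD8 T cells, of which Naïve had only 4. *Ltb*, which encodes lymphotoxin beta, was lower after ConA in several classes. It was at 646, 207, 115 and 209 CPM in B cells, at 905, 369, 120 and 241 CPM in NKT-type cells and at 246, 101, 60.1 and 45.8 CPM in NK cells, with log2 ratios of ConA+Veh over Naïve of -1.64, -1.30 and -1.28. Of the genes tested 18.9%, 14.5% and 13.1% were at least 2-fold lower in these classes. Of the 9 adaptors and feedback genes in B cells, which act downstream of CD40 and its relatives, 4 were at least 2-fold lower for ConA+Veh over Naïve, *Traf5*, *Birc2*, *Birc3* and *Map3k14*, with ratios of -1.56, -1.58, -1.54 and -1.84. The other 5 lay within 2-fold, between -0.76 for *Tnfaip3* and 0.90 (0.57 to 1.24) for *Traf1*.

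The genes whose pattern was most like that of each receptor were ranked by Pearson's r of log2(CPM + 10) over 36 points, each a class of at least 20 cells in 1 library, among 9080 genes. The points share libraries and are not independent. *Izumo1r* (r = 0.92), *Cd5* (0.87) and *Ccr8* (0.87) were nearest to *Tnfrsf4*, and *Tigit* (0.93), *Gzmb* (0.89) and *Serpinb6b* (0.88) to *Tnfrsf9*. Nearest to *Tnfrsf18* were *Ndfip1* (0.93), *Thy1* (0.92) and *Zap70* (0.92), and to *Cd27* *Lat* (0.95), *Zap70* (0.95) and *Thy1* (0.94). *Ccr2* (0.85) and *Ctsd* (0.85) were among the nearest to *Tnfrsf1b*. For *Cd40* they were *Btk* (0.98), *H2-Eb1* (0.97) and *Ly86* (0.97), and for *Cd40lg* *Trbv13-2* (0.85), *Ly6c1* (0.84) and *Tnfrsf25* (0.83). *Zap70* and *Lat* are genes of T cell receptor signalling, and *Btk*, *H2-Eb1* and *Ly86* are genes of B cells and other antigen-presenting cells.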

How the data were processed

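Liver mononuclear cells of 4 groups were profiled with the 10x Genomics 5′ kit, 1 library per group. The authors aligned reads to mm10 with Cell Ranger 3.0.2, and deposited UMI counts of each gene in each barcode, as counted and not normalized. Bcl2fastq is also named in the submitters' processing notes. The libraries held 2086 (Naïve), 2779 (ConA+Veh), 1880 (ConA+TCDD), 2555 (ConA+FICZ) cells and, in this order, 5952445, 19252211, 12077209 and 16017797 UMIs.

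From these counts, cells were gated on UMIs of marker genes, never on the 7 genes. T cells needed at least 1 UMI of *Cd3d* or *Cd3e* and at least 2 of *Cd3d*, *Cd3e*, *Cd3g*, *Trac*, *Trbc1* and *Trbc2*, B cells at least 2 of *Cd79a*, *Cd79b*, *Ms4a1* and a further marker, NK cells at least 2 of *Ncr1*, *Klrb1c* and *Klre1* without *Cd3d* and *Cd3e*, and phagocytes at least 3 of *Csf1r*, *Adgre1*, *Cd68* and *C1qa*. B, NK cells and phagocytes had no *Cd3d* or *Cd3e* UMI, and T, NK and B cells at most 1 UMI of phagocyte markers, T and NK cells at most 1 of B cell markers. T cells were sorted in the order Foxp3+ T, gamma delta-type T (*Trdc*), NKT-type T (*Zbtb16* or *Klrb1c*), CD8 T, CD4 T and other T, each without UMIs that exclude it, so deeper cells are likelier to enter a class. CD4 and CD8 T cells with at least 2 UMIs of *Mki67*, *Top2a*, *Cdk1*, *Ccna2* and *Birc5* were called cycling. The further marker, a planned further division of CD4 and CD8 T cells and 1 gene with a pattern like that of *Tnfrsf1b* are not reported here. No doublet caller was run, and 16, 42, 17 and 35 cells with T and B markers entered no class.

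UMIs of a gene were summed over a class and divided by the class total (CPM). A pair of gene and class was counted with at least 20 UMIs in both libraries together, and called at 2-fold. With 1 library per group no test between groups is possible. Intervals are exact, at 95%, and cover counting error only. A 0 was given a floor of 3 UMIs or 3 cells. Shares were taken after thinning cells to 1000 UMIs with seed 1. Genes named are the 7, a list of 24 pathway genes, and for each of the 7 the 3 genes with the highest Pearson's r of log2(CPM + 10) among genes with at least 200 UMIs, without marker genes. *Il2ra*, *Cd52* and *Ikzf2* were read as checks on the cells. The 7 genes and the lists were chosen with earlier results of these data known.

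Alternatives were marker limits raised by 1 UMI, cells chosen at 1000 UMIs, cells under 200 genes or over 10% mitochondrial UMIs left out, cells without *Cd52* left out, the 2% of cells with the most UMIs left out, a mean of UMIs per 10000 over cells, totals without ribosomal protein and mitochondrial genes, 1.5-fold, at least 50 or at least 5 UMIs, thinning to 500 UMIs or none, and log2(CPM + 1). Added after the data had been seen were the joined CD4 T, CD8 T and all T classes, classes of at least 20 cells only, NKT-type cells divided by *Cd4*, leaving out the cell with the most UMIs of a gene, and leaving out cells with at least 10 UMIs of neutrophil genes. The 2-fold calls in B and NK cells were also run on simulated data, whose outcome is not reported here and supports no statement above. Positions are from GENCODE vM21 (GRCm38), promoters from RefSeq (GRCm38.p6), where *Cd40* and *Cd40lg* were not found. Computations used matplotlib 3.10.9, pandas 2.3.3, scipy 1.17.1 and numpy 2.4.6 under Python 3.11.15.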

Additional observations from a re-analysis of the deposited data

Results flagged for a closer look

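*Tnfrsf4* moved in opposite directions between classes of T cells for ConA+TCDD over ConA+Veh, each by at least 2-fold. Its log2 ratio was 2.08 in Foxp3+ T cells, -1.05 in non-cycling CD8 T cells and -4.54 in NKT-type cells. With 1 library per group, every sample of a class moved 1 way by construction, and the difference between classes was not tested. The Foxp3+ value rests on 7 cells of ConA+Veh and 14 of ConA+TCDD. The CD8 value was 1.09 when the cells were chosen at 1000 UMIs. The NKT-type value was -3.34 without the cell with the most *Tnfrsf4* UMIs in each library. In cycling CD8 T cells the ratio was 0.51, under 2-fold, and over all T cells it was 0.05 (-0.07 to 0.17).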

How the results depend on the processing

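No paired analysis was possible because each group had 1 library, and for the same reason no replicate could be left out. Of the ratios past 2-fold, 2 reversed, both for ConA+TCDD over ConA+Veh. *Tnfrsf4* in non-cycling CD8 T cells went from -1.05 to 1.09 with cells chosen at 1000 UMIs, and *Tnfrsf9* in non-cycling CD4 T cells from -1.0 to 0.50 with marker limits raised by 1 UMI. The cause was not tested.

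The 13 higher pairs for ConA+Veh over Naïve were 9 with limits raised, 9 with cells chosen at 1000 UMIs and 9 at 50 UMIs. They were 16 as a mean over cells, and their count stayed within 1.5 times under each alternative. The 2 lower were 5 at 1.5-fold and 5 at 5 UMIs. With TCDD over vehicle the 2 higher were 1 as a mean over cells, 1 without the leading cell, 1 at 50 UMIs, 4 at 5 UMIs and 0 in classes of at least 20 cells. Its 5 lower were 3 with limits raised, 0 with cells chosen at 1000 UMIs, 1 without the deepest 2%, 2 without the leading cell and 9 at 1.5-fold. For ConA+FICZ over ConA+Veh the 1 higher was 2 with cells chosen at 1000 UMIs, 3 as a mean over cells, 2 at 1.5-fold, 2 at 5 UMIs and 0 in classes of at least 20 cells. Its 2 lower were 5 with limits raised, 1 without cells under 200 genes or over 10% mitochondrial UMIs, 1 without the deepest 2%, 6 as a mean over cells, 8 at 1.5-fold, 0 at 50 UMIs and 5 at 5 UMIs. Except for classes of at least 20 cells, no share of all pairs tested is given beside these counts. They show only how the counts depend on the setting. Leaving out cells with at least 10 UMIs of neutrophil genes moved none of these counts. Among the classes counted such cells lay only in cycling CD8 T, NK and B cells. Leaving out cells without *Cd52* kept 100 of 102 ratios within their intervals, and choosing cells at 1000 UMIs kept 69 of 98. With log2(CPM + 1) the most alike gene changed for 3 of the 7 genes.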
